A study of Mus musculus with 30 samples.

Results

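The epidermal growth factor (EGF) receptor ligands and receptors were followed through skin inflammation in WT and D6-deficient mice. The set is made up of 10 genes chosen by symbol: the ligands Ereg, Areg, Epgn, Hbegf, Tgfa, Btc and Egf, the receptors Egfr and Erbb2, and Errfi1, an intracellular inhibitor of the receptors. Their names were carried by 21 of the 45037 probe sets of the array, and 20 of these were bright enough to be tested. The remaining one, an Egfr probe set with a mean log2 intensity of 3.37, fell under the lowest mean that was tested, 3.72.

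D6 is an atypical chemokine receptor that takes up inflammatory chemokines, and D6-deficient mice lack it. Shaved back skin of female 129–C57BL/6 mice aged 8 to 12 weeks was painted 3 times with 50 µM TPA, a phorbol ester that irritates the skin, and taken at day 1, 2, 4 or 6 afterwards. The controls of each genotype stand as day 0; the study design calls them acetone-treated and the array titles call them untreated. The 10 groups, WT or D6-deficient at day 0, 1, 2, 4 or 6, held 3 arrays apiece, described as biological replicates. Levels below are log2 intensities, given in the order of the replicate numbers, and a change is a difference between log2 means, followed by its standard error (SE) and its adjusted p from limma. A change passed when the adjusted p was under 0.05.

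EGF receptor ligands are made as membrane-bound precursors that are cut from the cell surface by metalloproteases and then bind EGFR on the same or neighbouring cells. EGFR acts as a pair of receptor molecules, often with ERBB2, which has no ligand of its own. In epidermis the pathway drives keratinocyte growth and migration, and the ligands are known to be induced by wounding and by phorbol esters.

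Markers of the cell types of skin also changed between groups. Of 6 hair follicle markers, all 6 were higher than at day 0 at days 1 and 6 in both genotypes, and none passed at days 2 and 4. Their summed linear intensity was 154 to 210 on every array of days 0, 2 and 4 and 2191 to 42914 on those of days 1 and 6. All 4 skeletal muscle markers were lower than at day 0 at every later day in both genotypes. All 4 keratins of activated epidermis were higher at every later day, and at day 0 their sum was 2658 to 7447 on D6-deficient arrays against 1313 to 1962 on WT arrays. Differentiated keratinocyte markers fell at day 4, 5 of 6 in WT and 6 of 6 in D6-deficient mice. The deleted gene itself (Ccbp2 on the array) ran from 3.30 to 3.86 on the 15 D6-deficient arrays and from 4.15 to 5.76 on the 15 WT arrays by 1 of its 3 probe sets. The other probe sets overlapped, at 4.55 to 5.42 against 5.14 to 6.26 and at 6.59 to 8.09 against 6.69 to 8.54. Since whole skin was ground, fewer cells of a type and less RNA per cell cannot be told apart in any of the results.

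**Figure D1:**
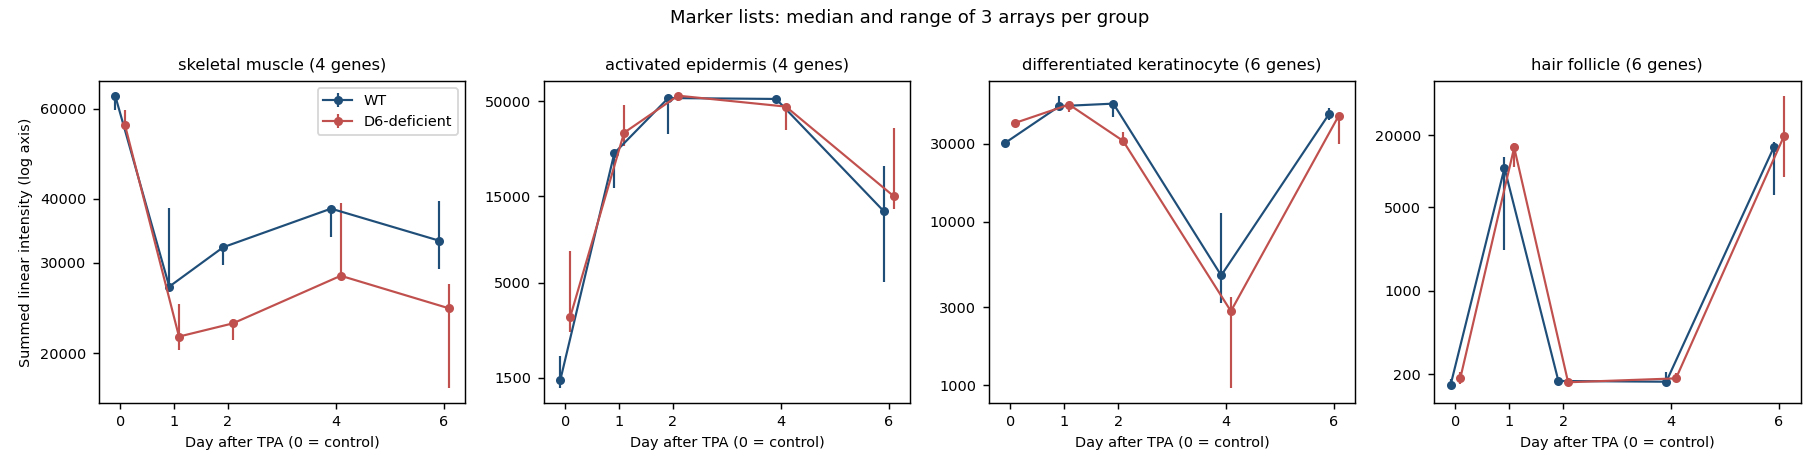
Summed linear intensity (log axis) of 4 marker lists against day in WT and D6-deficient skin, as the median (points) and range (bars) of 3 arrays per group. Hair follicle markers rise from between 154 and 210 to 2191 or more on days 1 and 6 alone, skeletal muscle markers stay under their day 0 levels, and differentiated keratinocyte markers reach their lowest level at day 4.

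Epgn, Ereg, Areg and Btc are neighbours on mouse chromosome 5, in this order, and no other protein-coding gene starts between them in the RefSeq annotation. The 250 bases before the annotated start are shown for Epgn, Areg and Btc, because Btc moved the opposite way to Epgn and Areg. Ereg, which lies between Epgn and Areg, had no window. Those of the second of the Errfi1 starts, which shares a motif with Areg, are also shown. They are RefSeq windows of GRCm38.p6: Epgn at chr5:91027267-91027516 (+ strand), Areg at chr5:91139349-91139598 (+ strand), Btc at chr5:91402995-91403244 (− strand) and Errfi1 at chr4:150854820-150855069 (+ strand). Each is written 5′ to 3′ in lower case, and capitals mark a match to the motifs searched.

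Epgn: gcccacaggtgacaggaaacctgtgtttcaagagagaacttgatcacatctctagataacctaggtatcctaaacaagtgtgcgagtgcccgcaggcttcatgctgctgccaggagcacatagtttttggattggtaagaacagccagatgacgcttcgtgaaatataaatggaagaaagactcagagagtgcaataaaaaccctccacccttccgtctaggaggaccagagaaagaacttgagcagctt

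Areg: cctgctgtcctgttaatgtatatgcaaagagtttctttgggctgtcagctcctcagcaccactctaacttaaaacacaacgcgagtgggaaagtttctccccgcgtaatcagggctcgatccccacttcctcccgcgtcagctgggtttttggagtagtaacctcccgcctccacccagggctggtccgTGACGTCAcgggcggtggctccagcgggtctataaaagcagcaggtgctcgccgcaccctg

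Btc: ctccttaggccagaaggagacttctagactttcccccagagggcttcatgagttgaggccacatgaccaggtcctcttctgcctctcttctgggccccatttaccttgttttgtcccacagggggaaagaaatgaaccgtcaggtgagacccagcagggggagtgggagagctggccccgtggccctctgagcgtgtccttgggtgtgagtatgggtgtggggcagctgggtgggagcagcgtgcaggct

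Errfi1: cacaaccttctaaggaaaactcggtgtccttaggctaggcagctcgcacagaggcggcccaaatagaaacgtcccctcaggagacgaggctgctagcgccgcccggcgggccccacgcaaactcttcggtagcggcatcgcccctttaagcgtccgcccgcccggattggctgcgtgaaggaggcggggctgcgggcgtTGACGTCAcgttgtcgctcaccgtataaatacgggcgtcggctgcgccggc

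Windows of 8 of the 10 members were searched on both strands for TGAGTCA, the TPA response element bound by AP-1, and for TGACGTCA, the cAMP response element. Ereg and Hbegf had no window and were not searched. None of the member windows searched held the first, which was found in 4.46% of all 32851 windows. The second was found in 1.55% of all windows and, among the members, in Areg and Errfi1, where its last base lay 54 and 44 bases before the start. A match describes the letters of the window and not a bound site.

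Against day 0 of the same genotype, member probe sets changed on every day. In WT skin, 6 of the 20 were higher and 4 lower at day 1, where 11.4 and 12.7% of all tested probe sets were higher and lower. The WT counts were 6 and 5 at day 2 (11 and 15% of all probe sets), 10 and 3 at day 4 (17.3 and 21.8%), then 3 and 5 at day 6 (10.2 and 11.9% of all). In D6-deficient skin, 10 were higher and 6 lower at day 1 (18.2 and 18.1% of all probe sets), 8 and 8 at day 2 (17.5 and 20.6%), next 10 and 5 at day 4 (18.8 and 22.4%), then 2 and 5 at day 6 (16 and 15.7%). Over both directions the share of members that passed was above that of all probe sets at days 1, 2 and 4 in both genotypes. At day 6 it was above it in WT skin and near it in D6-deficient mice, at 7 of 20. The 3 lower ones in WT skin at day 4 and the 2 higher ones in D6-deficient mice at day 6 were shares below those of all probe sets. The 20 probe sets belong to 10 genes and are not independent. The members were also chosen with earlier results of these data known, so a share above that of all probe sets is not a test of the set. The ligands Areg, Epgn, Hbegf and Tgfa accounted for much of the increase, and Btc and Egf for much of the decrease. Every comparison with day 0 shares its 3 control arrays with the other days of that genotype.

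**Figure D2:**
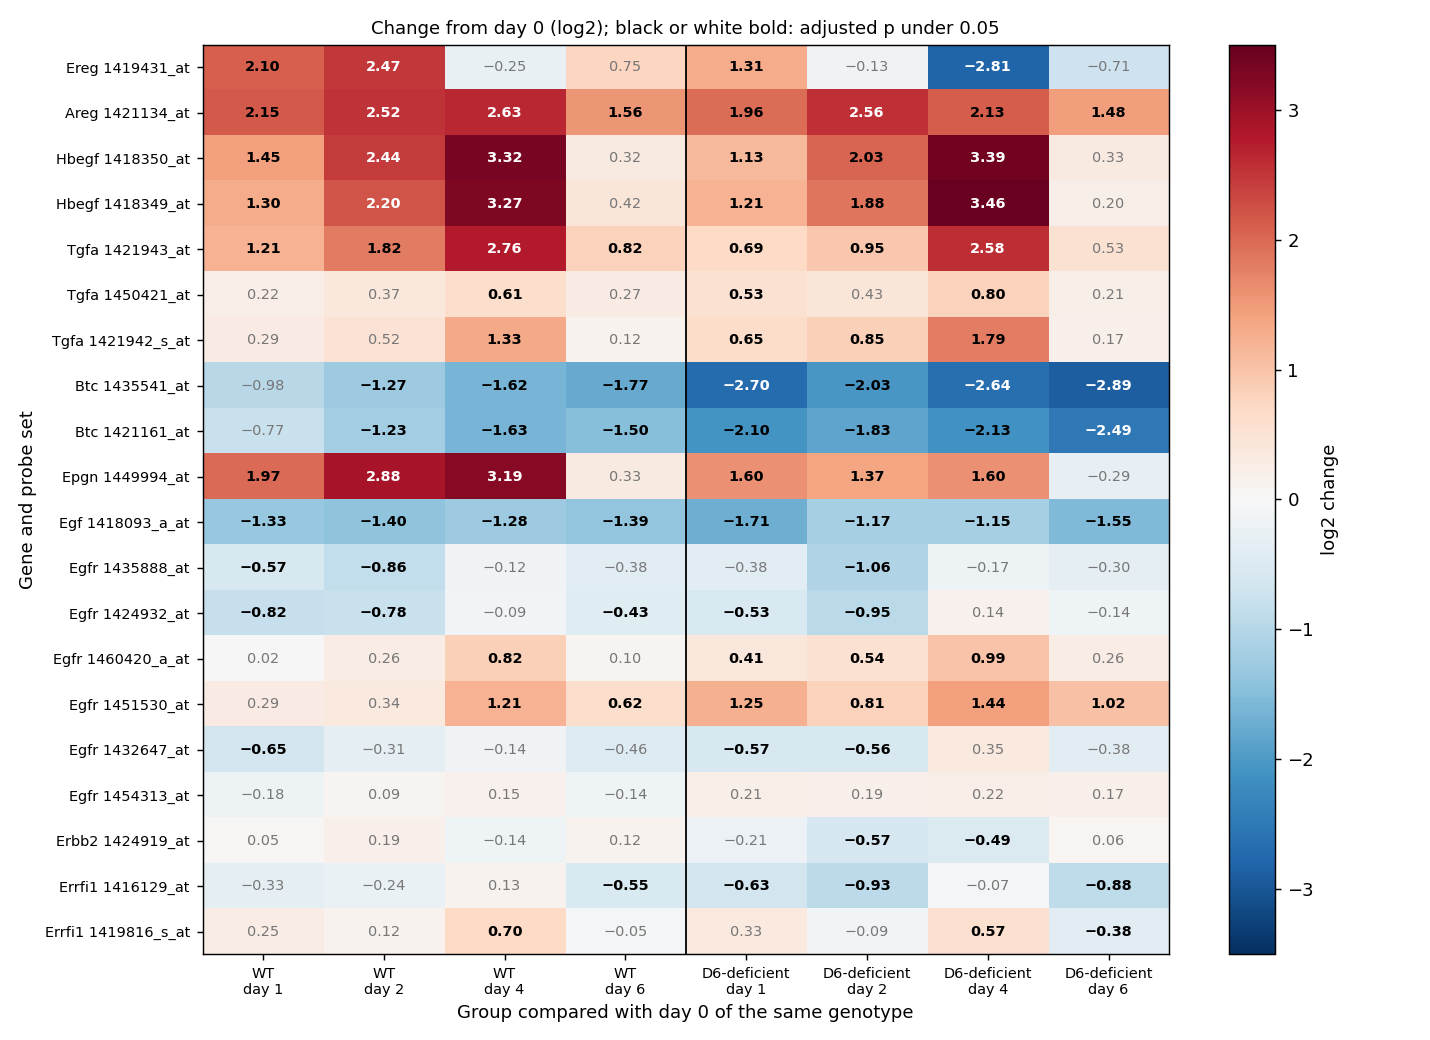
Change from day 0 of the same genotype (log2, colour and number) for the 20 tested member probe sets at days 1, 2, 4 and 6, with bold numbers where the adjusted p was under 0.05. Areg is higher in all 8 columns, Hbegf and Tgfa are highest at day 4, Egf is lower in all 8 columns, and Ereg goes from 2.10 at day 1 in WT skin to -2.81 at day 4 in D6-deficient skin.

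Ereg (probe set 1419431_at) encodes epiregulin, a ligand that also activates ERBB4-containing receptors. Its levels in WT skin were 8.40, 7.37 and 7.46 at day 0, 10.56, 9.25 and 9.72 at day 1, then 10.44, 9.52 and 10.70 at day 2. They then stood at 6.94, 8.13 and 7.41 at day 4 and 7.98, 8.85 and 8.64 at day 6. The arrays of days 1 and 2 lay above all those of day 0, and those of days 4 and 6 overlapped it. Ereg rose by 2.10 at day 1 (SE 0.36, adjusted p = 0.000153), or 4.28-fold, and by 2.47 at day 2 (SE 0.36, adjusted p = 1.81e-05).

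In D6-deficient skin the day 0 arrays of Ereg lay above those of WT skin, and its first drop came earlier. The day 0 difference (adjusted p = 0.0482 by limma) was lost in 10 of 16 alternatives, and at day 2 Ereg did not pass between the genotypes. The D6-deficient values were 9.44, 8.78 and 9.16 at day 0, 10.77, 10.12 and 10.42 at day 1, 9.29, 8.84 and 8.87 at day 2, 5.78, 6.59 and 6.57 at day 4, then 8.41, 8.61 and 8.23 at day 6. Day 1 was the highest group and day 4 the lowest, with no overlap of either with day 0. Ereg rose by 1.31 at day 1 (SE 0.36, adjusted p = 0.00591), stood at -0.13 at day 2 (adjusted p = 0.813), and fell by 2.81 at day 4 (SE 0.36, adjusted p = 9.69e-07). From day 4 to day 6 it rose again by 2.10 (SE 0.36, adjusted p = 7.69e-05). The drop between days 1 and 2 in these mice was -1.44 (adjusted p = 0.00991), which became 0.0635 without D6-deficient day 1 replicate 1. In WT skin the drop came between days 2 and 4, at -2.73 (adjusted p = 8.53e-06). Day 4 had the lowest group mean of Ereg in both genotypes, although in WT skin its arrays overlapped those of day 0. Differentiated keratinocyte markers were also lowest on that day, at a sum of 964 to 3482 in D6-deficient and 3170 to 11329 in WT skin. The part of these cells in the Ereg result was not tested.

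**Figure D3:**
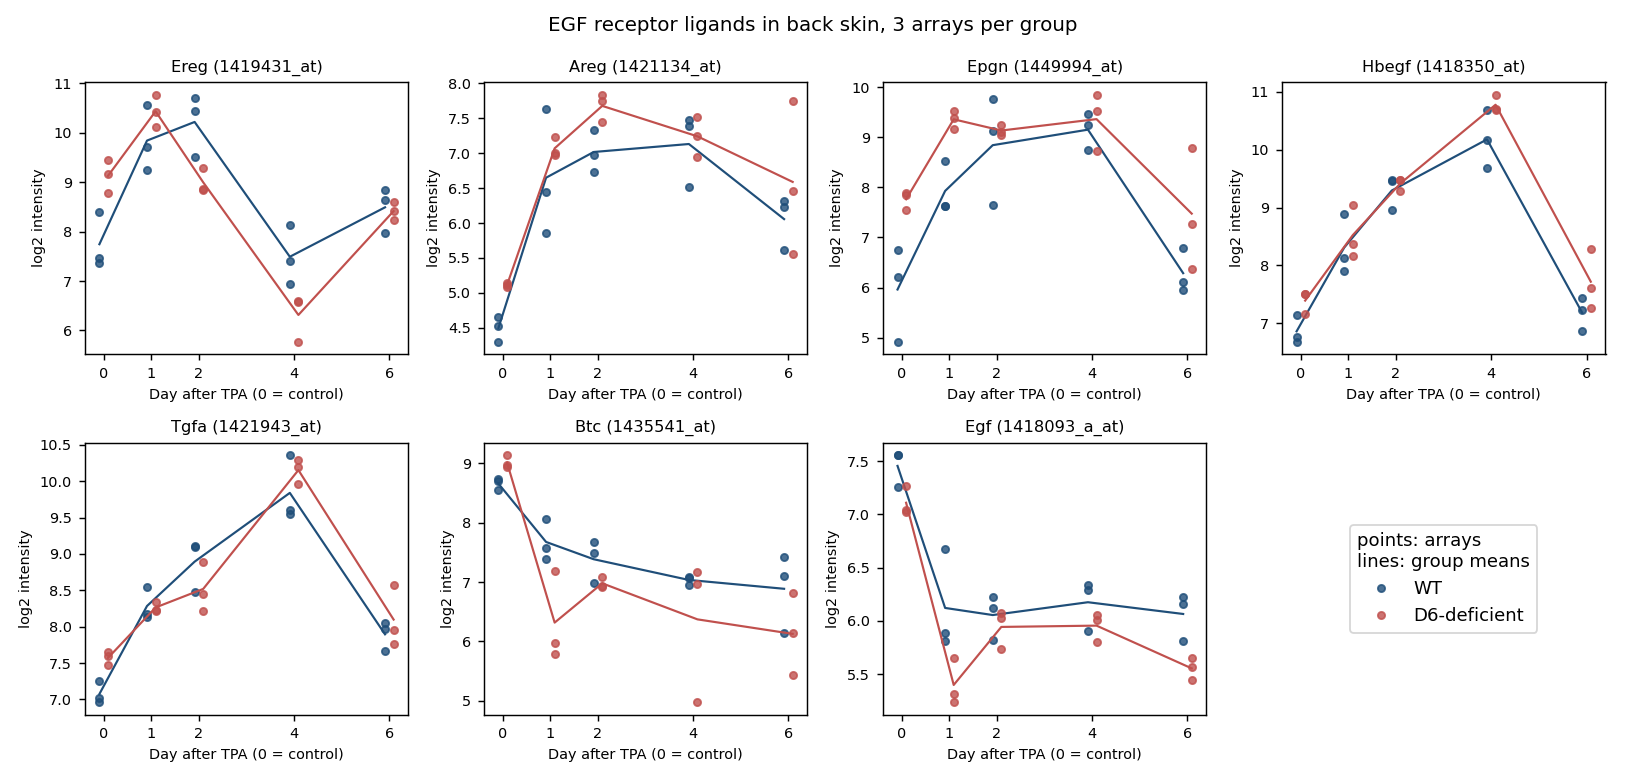
log2 intensity of the 7 ligands (brightest probe set of each) against day in WT (blue) and D6-deficient (red) skin, with 1 point per array and lines through the group means of 3 arrays. Ereg reaches its lowest levels at day 4, when Hbegf and Tgfa are at their highest, and Btc and Egf stay under their day 0 levels from day 1 on.

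Areg encodes amphiregulin, a ligand that is abundant in thickened, psoriasis-like epidermis. It was the only ligand whose increase from day 0 passed at all 4 days in both genotypes. The means of Hbegf and Tgfa also lay above day 0 at all 4 days in both genotypes, but not all of those increases passed. Its WT levels were 4.30, 4.66 and 4.53 at day 0, 7.64, 5.86 and 6.45 at day 1, 7.34, 6.98 and 6.73 at day 2, 7.39, 6.52 and 7.48 at day 4, then 5.62, 6.32 and 6.23 at day 6. In D6-deficient skin they were 5.14, 5.11 and 5.08, then 7.01, 6.97 and 7.23, then 7.45, 7.84 and 7.74, then 7.52, 6.95 and 7.25, and at day 6 they were 6.46, 7.75 and 5.55. No TPA-treated array reached down to the controls of its genotype. The increase was greatest in WT skin at day 4, at 2.63 (SE 0.39, adjusted p = 1.08e-05), and in D6-deficient skin at day 2, at 2.56 (SE 0.39, adjusted p = 1.61e-05). At day 6 it was 1.56 in WT (adjusted p = 0.00598) and 1.48 in D6-deficient mice (adjusted p = 0.00578), the latter not passing without D6-deficient day 6 replicate 2 (0.89, adjusted p = 0.0725).

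Epgn encodes epigen, a weakly binding ligand made in epithelia. In WT skin its levels were 6.22, 4.92 and 6.75 at day 0, 8.52, 7.64 and 7.63 at day 1, 9.76, 7.64 and 9.13 at day 2, 9.25, 8.75 and 9.46 at day 4, then 5.95, 6.80 and 6.11 at day 6. Those in D6-deficient skin were 7.85, 7.54 and 7.90 at day 0, between 8.72 and 9.85 on all 9 arrays of days 1 to 4, and 7.27, 8.78 and 6.38 at day 6. All arrays of days 1 to 4 lay above the controls of their genotype, and those of day 6 overlapped them. Epgn rose in WT skin by 1.97 at day 1 (SE 0.50, adjusted p = 0.00579), 2.88 at day 2 (adjusted p = 0.000159) and 3.19 at day 4 (adjusted p = 2.2e-05). The increases in D6-deficient skin were 1.60, 1.37 and 1.60 (adjusted p = 0.0154, 0.034 and 0.013). Several of these rested on single arrays. Without WT day 0 replicate 2, the lowest control, the WT day 1 increase was 1.45 (adjusted p = 0.0522). The D6-deficient day 2 increase was lost when any of its 6 arrays was left out, with an adjusted p from 0.0586 to 0.0963, and those of days 1 and 4 without D6-deficient day 0 replicate 2 (0.0519), day 1 replicate 1 (0.0501) or day 4 replicate 1 (0.0599).

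Hbegf and Tgfa, which encode heparin-binding EGF-like growth factor and transforming growth factor alpha, rose from day 1 and were highest at day 4, and Hbegf overlapped its day 0 levels again at day 6. Hbegf (1418350_at) in WT skin read 6.68, 7.14 and 6.75 at day 0, 8.89, 8.13 and 7.89 at day 1, 9.47, 9.46 and 8.96 at day 2, 10.17, 9.68 and 10.68 at day 4, then 6.87, 7.43 and 7.23 at day 6. The D6-deficient arrays read 7.50, 7.16 and 7.51, then 8.36, 8.16 and 9.04, then 9.29, 9.48 and 9.48, then 10.70, 10.95 and 10.68, and at day 6 they read 7.26, 8.29 and 7.61. In both genotypes the 3 arrays of day 4 stood above all other days. At day 4 the increase was 3.32 in WT (SE 0.28, adjusted p = 2.46e-09) and 3.39 in D6-deficient mice (SE 0.28, adjusted p = 1.06e-09), or 9.99-fold and 10.5-fold. The second Hbegf probe set gave 3.27 and 3.46. From day 4 to day 6 the change of Hbegf was -3.00 in WT (adjusted p = 3.09e-08) and -3.06 in D6-deficient mice (adjusted p = 1.05e-08).

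Tgfa (1421943_at) read 7.25, 6.96 and 7.01 at day 0 and 9.61, 9.55 and 10.35 at day 4 in WT skin, and 7.65, 7.47 and 7.60 against 9.97, 10.20 and 10.29 in D6-deficient mice. The ranges at days 1 and 2 lay in between, from 8.13 to 9.11 over both genotypes. Its increase at day 4 was 2.76 in WT (SE 0.22, adjusted p = 1.02e-09) and 2.58 in D6-deficient mice (SE 0.22, adjusted p = 1.67e-09). At day 2 it was 1.82 in WT (adjusted p = 1.42e-06) and 0.95 in D6-deficient mice (adjusted p = 0.00118), and at day 6 it was 0.82 (adjusted p = 0.00821) and 0.53 (adjusted p = 0.0659). The other Tgfa probe sets were dimmer, with means of 5.45 and 5.43, and moved the same way by less, at 0.61 and 1.33 in WT and 0.80 and 1.79 in D6-deficient mice at day 4. They did not pass at day 1, 2 or 6 in WT skin. Neutrophil markers were also high then, with a sum of 44555 to 55302 at day 4 against 632 to 4420 at day 0 in WT skin, and their part in the Hbegf and Tgfa changes was not tested.

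Btc, which encodes betacellulin, moved the opposite way to its chromosomal neighbours Areg and Epgn. Its levels (1435541_at) in WT skin were 8.55, 8.70 and 8.73 at day 0, 7.39, 8.06 and 7.58 at day 1, 6.99, 7.50 and 7.68 at day 2, 6.96, 7.06 and 7.09 at day 4, then 7.42, 6.14 and 7.11 at day 6. In D6-deficient skin they were 9.14, 8.94 and 8.97, then 5.98, 5.79 and 7.18, then 6.94, 6.91 and 7.09, then 4.97, 6.97 and 7.18, and finally 6.13, 5.44 and 6.81. Every treated array lay below the controls of its genotype, although 1 D6-deficient array of day 4 lay well below its fellows. Btc fell in WT skin by 1.62 at day 4 (SE 0.43, adjusted p = 0.00394) and by 1.77 at day 6 (adjusted p = 0.00434). In D6-deficient skin it fell on all 4 days, with changes of -2.70, -2.03, -2.64 and -2.89 (SE 0.43, adjusted p = 3.63e-05, 0.00054, 2.36e-05 and 2.38e-05). The changes of the second probe set were -1.63 and -1.50 in WT skin at those days and -2.10, -1.83, -2.13 and -2.49 in D6-deficient mice, and all passed. This probe set was dim after TPA, with D6-deficient means of 4.24, 4.51, 4.21 and 3.85. These lie near the lowest mean tested, 3.72, so the size of its fall is less certain. At day 1 in WT skin neither probe set passed (-0.98, adjusted p = 0.0997, and -0.77, adjusted p = 0.0532). At day 2 in WT skin the change was -1.27 (adjusted p = 0.0294). The day 2 call was lost without any one of WT day 0 replicates 1, 2 and 3 and WT day 2 replicates 1 and 2, at an adjusted p of 0.0552 to 0.113, while the second probe set gave -1.23 (adjusted p = 0.00259). Sebaceous gland markers were low with Btc, at a sum of 4623 to 9610 on the day 0 arrays and 618 to 3070 on all later ones, and their part in the result was not tested.

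Egf, which encodes the founding ligand of the family, dropped by day 1 and stayed low. In WT skin it read 7.26, 7.55 and 7.55 at day 0, and between 5.81 and 6.67 on all 12 later arrays. D6-deficient skin gave 7.26, 7.02 and 7.04 at day 0 and between 5.24 and 6.07 on all 12 later arrays. No later array overlapped the controls of its genotype. The changes ranged from -1.28 to -1.40 in WT (SE 0.18, adjusted p from 4.52e-06 to 1.69e-05) and from -1.15 to -1.71 in D6-deficient mice (SE 0.18, adjusted p from 2.24e-07 to 1.96e-05). Among the later days, the D6-deficient arrays of day 1 (5.24 to 5.65) lay below those of day 2 (5.73 to 6.07), by 0.54 (adjusted p = 0.0564), and no step between consecutive days passed in either genotype. The 4 skeletal muscle markers were also low on all later days, with a sum of 54874 to 63569 on the day 0 arrays and 17104 to 39603 on all later ones, and the part of muscle in the Egf result was not tested.

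**Figure D4:**
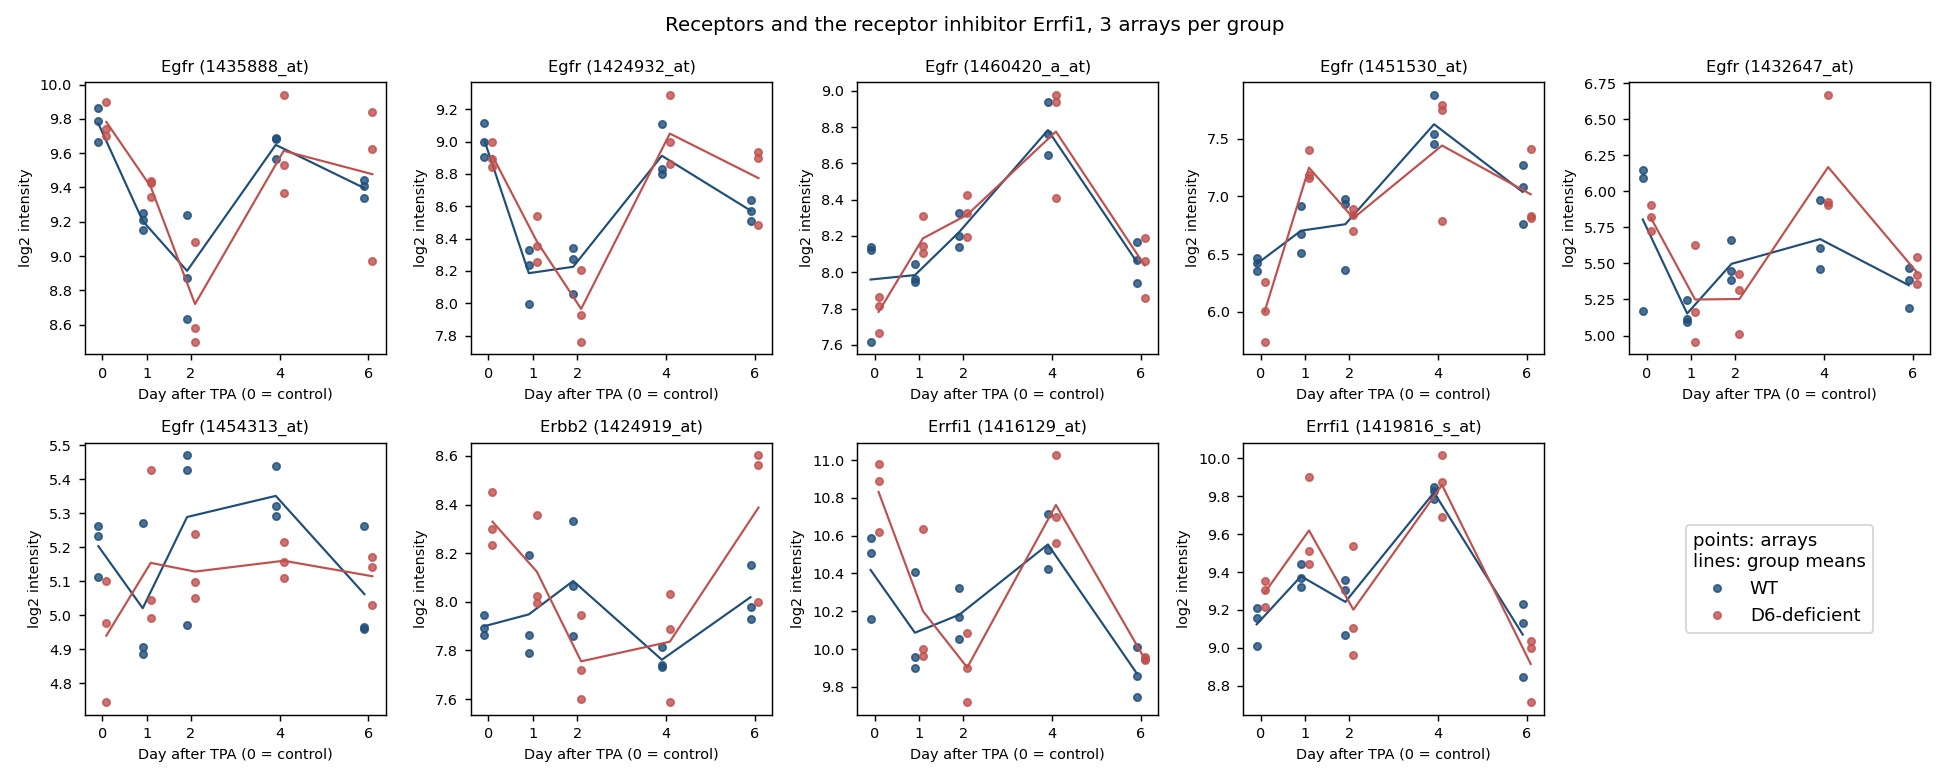
log2 intensity of the 9 tested probe sets of Egfr, Erbb2 and Errfi1 against day in WT (blue) and D6-deficient (red) skin, with 1 point per array and lines through the group means of 3 arrays. The brightest Egfr probe sets dip at days 1 and 2 whereas 1460420_a_at and 1451530_at are highest at day 4.

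Egfr, the receptor for all 7 ligands, gave different answers on different probe sets. The brightest (1435888_at) read 9.86, 9.79 and 9.66 at day 0, 9.21, 9.15 and 9.25 at day 1, 9.24, 8.87 and 8.63 at day 2, 9.69, 9.69 and 9.57 at day 4, then 9.44, 9.34 and 9.41 at day 6 in WT skin. D6-deficient arrays read 9.70, 9.90 and 9.74 at day 0, 9.44, 9.35 and 9.43 at day 1, 9.08, 8.58 and 8.50 at day 2, 9.94, 9.53 and 9.37 at day 4, then 9.84, 9.62 and 8.97 at day 6. Day 2 was the low point in both genotypes, and day 4 overlapped day 0. This probe set fell at day 2 by 0.86 in WT (SE 0.18, adjusted p = 0.000925) and by 1.06 in D6-deficient mice (SE 0.18, adjusted p = 5.05e-05). Its WT day 1 change was -0.57 (adjusted p = 0.0225), lost without WT day 0 replicate 1 (0.081) or 2 (0.0554) or WT day 1 replicate 1 (0.0578) or 2 (0.06). The next brightest, 1424932_at, changed at day 1 by -0.82 in WT and -0.53 in D6-deficient mice (adjusted p = 0.000129 and 0.0041), and at day 2 by -0.78 and -0.95 (adjusted p = 0.000173 and 8.2e-06).

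The probe set 1451530_at of Egfr moved up instead. It read 6.47, 6.36 and 6.42 at day 0 and 7.88, 7.46 and 7.54 at day 4 in WT skin, and 6.01, 5.74 and 6.26 against 6.78, 7.80 and 7.75 in D6-deficient mice. It was higher at day 4 by 1.21 in WT (SE 0.22, adjusted p = 0.000113) and 1.44 in D6-deficient mice (SE 0.22, adjusted p = 1.17e-05), and already at day 1 by 1.25 in D6-deficient skin (adjusted p = 0.000116). 1460420_a_at rose at day 4 by 0.82 and 0.99 (adjusted p = 5.98e-05 and 4.46e-06). So on day 2 in D6-deficient skin 3 Egfr probe sets were lower, the 2 brightest and 1432647_at (-0.56, adjusted p = 0.0415), and 2 were higher, 1460420_a_at (0.54, adjusted p = 0.00407) and 1451530_at (0.81, adjusted p = 0.00512). 1454313_at passed at no day (-0.18 to 0.22). When all probe sets of Egfr were averaged, the day 4 change, -0.12 in WT and -0.17 in D6-deficient mice by the brightest, was 0.27 and 0.40 and passed, and the day 2 changes, -0.17 in each, did not. Which transcripts the probe sets read was not analysed here, so no direction is given for the gene as a whole.

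Erbb2, the partner receptor (1424919_at), moved little. It read 7.86, 7.94 and 7.89 at day 0 and 8.07, 8.33 and 7.86 at day 2 in WT skin, and 8.45, 8.30 and 8.23 against 7.60, 7.72 and 7.94 in D6-deficient mice. All 15 WT arrays lay between 7.73 and 8.33 and no WT change passed (-0.14 to 0.19). In D6-deficient skin Erbb2 fell by 0.57 at day 2 (SE 0.15, adjusted p = 0.0046) and by 0.49 at day 4 (SE 0.15, adjusted p = 0.0124), the latter lost without D6-deficient day 0 replicate 1 (0.0557) or day 4 replicate 2 (0.0914).

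Errfi1, a feedback inhibitor whose protein binds and inactivates the EGFR kinase, was the brightest member (mean 10.28). Its levels (1416129_at) in WT skin were 10.59, 10.51 and 10.16 at day 0 and 10.01, 9.75 and 9.86 at day 6. In D6-deficient skin they were 10.98, 10.89 and 10.62 at day 0, between 9.96 and 10.64 at day 1, 9.72, 10.09 and 9.90 at day 2, 11.02, 10.70 and 10.56 at day 4, then 9.95, 9.94 and 9.96 at day 6. Days 2 and 6 of D6-deficient skin lay below its controls, and day 4 overlapped them. Errfi1 fell there, with changes of -0.63 at day 1 (SE 0.17, adjusted p = 0.00508), -0.93 at day 2 (adjusted p = 0.000121) and -0.88 at day 6 (adjusted p = 0.000367). The second probe set, 1419816_s_at, did not show the early fall, at 0.33 at day 1 (adjusted p = 0.07) and -0.09 at day 2 (adjusted p = 0.661), and averaging both ended the day 1 call (-0.15, adjusted p = 0.406). In WT skin the day 6 change was -0.55 (adjusted p = 0.0222), lost without WT day 0 replicate 1 (0.103) or 2 (0.0734) or WT day 6 replicate 2 (0.105) and with both probe sets averaged (-0.30, adjusted p = 0.109), the second probe set alone giving -0.05 (adjusted p = 0.833). The second probe set was higher at day 4 by 0.70 in WT (adjusted p = 0.000339) and 0.57 in D6-deficient mice (adjusted p = 0.00207), where the first was not changed past the test (0.13 and -0.07). Both fell between days 4 and 6, with changes of -0.68 and -0.75 in WT and -0.81 and -0.94 in D6-deficient mice.

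From one time point to the next, the members moved most around day 4. Between days 1 and 2 in WT skin limma passed 0 of the 20 member probe sets, where 1.2% of all probe sets passed. At an unadjusted p under 0.05 limma gave 3 of the members and 4861 of all 36029. The methods' t-test gave 0 members after adjustment. Between days 2 and 4 limma passed 9 higher and 1 lower, with 14.5% of all probe sets in either direction. Between days 4 and 6 it passed 1 higher and 8 lower, with 22.1%. The counts in D6-deficient skin were 1 higher and 2 lower between days 1 and 2 (10.4% of all), 10 and 1 between days 2 and 4 (16.3%), and 2 and 10 between days 4 and 6 (31.4%). Ereg was the member that was lower from day 2 to day 4 in both genotypes and higher from day 4 to day 6, although its WT rebound of 1.00 (adjusted p = 0.0465) was lost without WT day 4 replicate 1 or 3 or WT day 6 replicate 2 or 3, at an adjusted p of 0.126 to 0.227.

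The genotypes were compared on each day, which asks whether loss of D6 alters these genes. At day 0 limma passed 1 of the 20 member probe sets, Ereg, against 1.57% of all probe sets. The 3 D6-deficient controls (8.78 to 9.44) lay above the 3 WT controls (7.37 to 8.40), a difference of 1.38 (SE 0.36, adjusted p = 0.0482). The call was lost without WT day 0 replicate 2 (0.189) or 3 (0.167) and without D6-deficient day 0 replicate 1 (0.198), 2 (0.0524) or 3 (0.142), and with no filter on low values, with each array's median subtracted, with the arrays of day 0 alone or with a replicate block. Epgn was next, at 1.80 (SE 0.50, adjusted p = 0.0692), and its 3 D6-deficient controls (7.54 to 7.90) also lay above the WT controls (4.92 to 6.75). Marker lists also differed between the controls. The summed keratins of activated epidermis (2658 to 7447 in D6-deficient against 1313 to 1962 in WT, 2 of 4 passed) and the basal keratinocyte markers (27734 to 31753 against 19273 to 19940, 2 of 6 passed) lay higher in the D6-deficient controls with no overlap. So did the differentiated keratinocyte markers (37914 to 40364 against 28916 to 31963) and the sebaceous gland markers (6474 to 9610 against 4623 to 5886), among which the lowest adjusted p by limma was 0.293, for Flg. The macrophage sum lay lower (10929 to 13647 against 15491 to 17201, 1 of 4 passed), and the neutrophil sums overlapped (2509 to 14930 against 632 to 4420, 1 of 4 passed higher). Their part in the Ereg result was not tested.

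After TPA no member probe set passed between the genotypes on the same day. limma gave 0 at days 1, 2, 4 and 6, where 0.0555, 4.45, 0.513 and 0.125% of all probe sets passed. At an unadjusted p under 0.05 limma gave 5, 2, 4 and 4 member probe sets, and 2887, 5590, 3620 and 3015 of all 36029. The methods' t-test gave 0 on each of these days after adjustment. Ereg was the closest, with a difference of -1.22 at day 2 (SE 0.36, adjusted p = 0.0508) and of -1.18 at day 4 (SE 0.36, adjusted p = 0.158). On both days its 3 D6-deficient arrays lay below the 3 WT arrays. Egf at day 1 differed by -0.72 (SE 0.18, adjusted p = 0.223) with no overlap between the genotypes. The share of all probe sets without overlap was not counted, so the lack of overlap of Ereg and Egf is no test of a difference. For Hbegf, Tgfa and Areg the same-day differences lay between -0.37 and 0.66, with SEs of 0.22 to 0.39, which does not show equal levels.

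**Figure D5:**
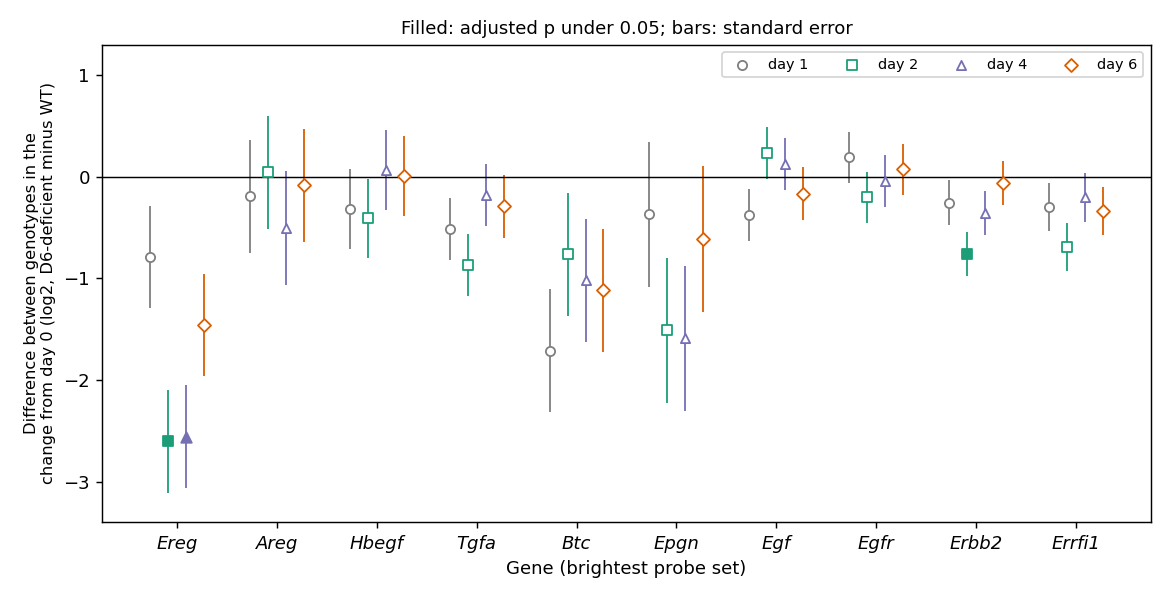
Difference between the genotypes in the change from day 0 (log2, D6-deficient minus WT) for the brightest probe set of each of the 10 genes at days 1, 2, 4 and 6, with bars of 1 standard error and filled symbols where the adjusted p was under 0.05. Ereg at days 2 and 4 and Erbb2 at day 2 are filled, at -2.60, -2.56 and -0.76.

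The changes from day 0 were then compared between the genotypes, with each genotype measured against its own controls. At day 2, limma passed 2 of the 20 member probe sets (5.4% of all probe sets) and at day 4 it passed 1 (0.608%). The members at day 2 were Ereg and Erbb2. Ereg had risen by 2.47 in WT and stood at -0.13 in D6-deficient mice, a difference of -2.60 (SE 0.51, adjusted p = 0.00259), which passed without each of the 12 arrays in turn (-2.36 to -2.96). Erbb2 stood at 0.19 in WT and had fallen by 0.57 in D6-deficient mice, a difference of -0.76 (SE 0.22, adjusted p = 0.04), which was lost when any array but WT day 2 replicate 3 or D6-deficient day 2 replicate 3 was left out, at an adjusted p of 0.0536 to 0.117. The call at day 4 was Ereg, at -0.25 in WT and -2.81 in D6-deficient mice, a difference of -2.56 (SE 0.51, adjusted p = 0.0202). It was lost without WT day 0 replicate 2 (0.0557) or 3 (0.0557), WT day 4 replicate 2 (0.0713), D6-deficient day 0 replicate 1 (0.0719) or 3 (0.0559), or D6-deficient day 4 replicate 1 (0.0514). At day 2, sebaceous gland markers summed to 948 to 1378 in D6-deficient and 1564 to 2525 in WT skin (2 of 4 passed lower relative to day 0), and differentiated keratinocyte markers to 29739 to 35571 and 43638 to 53731 (1 of 6 passed lower), both without overlap, and their part in the Ereg and Erbb2 results was not tested. The differences in change include that between the controls, and on the same day alone Ereg did not pass, as given above.

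At days 1 and 6 no member passed in this comparison by limma, where 0.0194 and 0.025% of all probe sets passed. The methods' t-test also gave 0 members after adjustment. At an unadjusted p under 0.05 limma gave 3 and 2 member probe sets, and 3494 and 2886 of all 36029. Btc had the widest difference at day 1, at -1.71 (SE 0.61, adjusted p = 0.328). For Hbegf the differences were -0.41 to 0.07 (SE 0.39) and for Areg -0.50 to 0.05 (SE 0.56), which does not show that the genotypes responded alike.

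Other genes of the pathway were counted from lists, with 1 probe set per gene, and are to be read against the shares of all probe sets at day 4, which were 17.3% higher and 21.8% lower in WT and 18.8% higher and 22.4% lower in D6-deficient skin. Among 9 genes that respond to ERK, the kinase downstream of EGFR, 4 in WT and 5 in D6-deficient skin were higher at day 4 and 0 were lower. Plaur, the urokinase receptor, rose by 2.41 in WT and 2.56 in D6-deficient mice and Ier3, an immediate early gene, by 2.42 and 2.13. Myc (0.15 and 0.21) and Egr1 (0.07 and -0.01) did not pass. The median of this list at day 4 was 0.69 in WT and 0.59 in D6-deficient mice, with 0.01 over all probe sets in both.

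Of the 14 feedback inhibitors, 3 rose and 5 fell at day 4 in WT (17.3 and 21.8% of all probe sets), and 5 rose and 6 fell in D6-deficient skin (18.8 and 22.4%), so that the WT count of higher genes was near the share of all probe sets. Socs3, which restrains cytokine signalling, rose by 2.19 and 2.28, and Dusp5, a phosphatase that acts on ERK, by 1.82 and 1.62. Lrig1, a membrane protein that promotes loss of EGFR from the surface, changed by -1.65 in WT and -1.85 in D6-deficient mice, and Dusp4, another ERK phosphatase, by -0.80 and -1.32. Of 6 genes of ligand shedding and maturation, 1 rose and 2 fell at day 4 in each genotype, where 17.3 and 21.8% of all probe sets did in WT and 18.8 and 22.4% in D6-deficient skin. The count of higher genes was near those shares in both genotypes. Timp3, an inhibitor of the shedding proteases, changed by -2.58 in WT and -2.46 in D6-deficient mice (adjusted p = 2.33e-08 and 3.29e-08). Rhbdf2, which carries the protease ADAM17 to the surface, rose by 0.50 and 0.34, its relative Rhbdf1 changed by -0.36 and -0.66, and Cnih2 stood at -0.02 and 0.26.

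Of the 19 adaptors and ERK pathway genes, 6 rose and 4 fell at day 4 in WT (17.3 and 21.8% of all probe sets) and 5 rose and 3 fell in D6-deficient skin (18.8 and 22.4%), of which the WT lower and both D6-deficient counts were near those shares. The adaptor Grb2 rose by 0.91 and 1.17 and Stat3 by 0.89 and 0.79, whereas Plcg1, a phospholipase, changed by -0.60 and -0.38 and Sos1, which activates Ras, by -0.37 and -0.69. Among the other ErbB receptors and neuregulins, 4 of 6 genes were bright enough to be tested, and 1 rose and 1 fell in each genotype at day 4. With 4 genes these counts were near the shares of all probe sets (17.3 and 21.8% in WT, 18.8 and 22.4% in D6-deficient skin). Nrg1, a ligand of the ERBB3 and ERBB4 receptors, rose by 1.06 in WT and 1.48 in D6-deficient mice. Nrg4 was -1.48 in WT (adjusted p = 0.0022) and -0.86 in D6-deficient mice (adjusted p = 0.0622), and Erbb3 was -0.37 (adjusted p = 0.122) and -1.26 (adjusted p = 6.86e-06). Nrg2 stood at 0.17 and 0.04.

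The group means placed the ligands in different patterns. Over the 10 groups of genotype and day, Pearson's r was 0.96 between Hbegf and Tgfa, 0.93 between Btc and Egf, 0.87 between Epgn and Hbegf, and 0.82 between Areg and Epgn. Ereg followed none of the other ligands, with r between -0.40 and 0.11. Areg and Egf ran against each other, at -0.84. These values describe 10 points that share their arrays and their TPA treatment.

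The genes most like each ligand other than Egf, among tested probe sets with 1 gene symbol and over the same 10 group means, differed between ligands. Areg was closest to Krt6a, Krt16 and Sprr1b (r = 0.99, 0.98 and 0.98), which encode keratins and an envelope protein of activated keratinocytes. Hbegf was closest to Slpi, Ier3 and Ccrn4l (0.99, 0.99 and 0.98), and Tgfa to Slc9a3r1, Bhlhe40 and Dhrs1 (0.99, 0.99 and 0.98). The nearest to Epgn were Dclre1b, Slc36a1 and Pafah1b1 (0.97, 0.97 and 0.96), and to Ereg they were Yod1, Srpk1 and Fam109a (0.98, 0.98 and 0.97). Btc was closest to Nfatc1, Nfatc2 and Ppargc1a (0.97 each).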

How the data were processed

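RNA of whole back skin was hybridized to 30 Affymetrix mouse genome arrays. The authors background-corrected, quantile-normalized and summarized the probes by RMA in GeneSpring GX and deposited linear intensities from before their base-line transformation. The log2 of the intensity was taken here without further scaling. RMA removes shifts that are common to a whole array. Of 45037 probe sets (64 controls left out), the 20% with the lowest mean, 9008, were left out and 36029 tested. limma 3.58.1 in R 4.3.3 (lmFit and eBayes, 1 mean per group, all 30 arrays) gave changes, SEs and p values, adjusted by Benjamini-Hochberg within each contrast over every probe set tested; the code was tested on simulated data. The methods name unpaired t-tests, which were run as an alternative. No array was left out. A gene is named by its brightest probe set over all arrays, and by others where they pass differently. Of each pathway list, the 2 genes with the largest and the 2 with the smallest mean change over both genotypes are named for day 4, the day with the most member calls, and for each ligand the 3 genes with the highest correlation (those of Egf are not reported here). The members and lists were chosen with earlier results of these data known. Alternatives were no filter, a filter of 40%, median centring, arrays of the contrast only, a replicate block, hybridization control sets as a covariate, array weights, averaged probe sets and each array left out. The number of arrays limits the precision, and nothing says whether the replicates of a group shared a day of treatment.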

Additional observations from a re-analysis of the deposited data

Results flagged for a closer look

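The 2 genotypes differed in their change from day 0 in 3 results on member probe sets, by the interaction term of the limma fit. The change of Ereg (1419431_at) at day 2 was -2.60 in D6-deficient relative to WT skin, and at day 4 it was -2.56. That of Erbb2 (1424919_at) at day 2 was -0.76. The day 0 arrays are part of each, and at day 0 Ereg was already 1.38 and Erbb2 0.43 higher in D6-deficient skin (adjusted p = 0.0482 and 0.172). Over 22 alternatives, among them each array left out, Ereg at day 2 passed in all. Ereg at day 4 was lost in 7 of them and Erbb2 at day 2 in 11. With 3 arrays in a group, no array was called an outlier. The array weights were lowest for D6-deficient day 6 replicate 3 (0.347), day 4 replicate 1 (0.356) and day 6 replicate 2 (0.456), and these arrays were kept in the main fit.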

How the results depend on the processing

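Each result was recomputed under the alternatives. Of 82 changes of the 10 genes that passed, 36 passed under every alternative and 46 missed the threshold under at least 1. The difference between the genotypes in the Ereg change at day 2 passed in every alternative run (-2.36 to -2.96). With the methods' t-test after adjustment, member probe sets passed against day 0 numbered 3 at day 1, 7 at day 2 and 0 at day 6 in WT and 3 at day 6 in D6-deficient skin; between genotypes they numbered 0 at day 0, and relative to day 0 they numbered 1 at day 2 and 0 at day 4. Over 3-fold at the methods' unadjusted threshold there was 1 each at day 0 on the same day and at days 1 and 6 relative to day 0. With probe sets averaged, 3 genes passed at day 6 in WT and 1 between genotypes at day 2, and the Egfr changes at day 4 turned to 0.27 (WT) and 0.40 (D6-deficient). At day 0 the count between genotypes was 0 with no filter, with medians subtracted, with arrays of the contrast only and with the replicate block, and 3 with array weights. Array weights gave 4 at day 1, 1 at day 2 and 3 at day 1 relative to day 0. At day 2, leaving out the lowest 40% or using arrays of the contrast only gave 1. Leaving out single arrays gave 5 to 8 at day 6 in WT, 0 to 1 between genotypes at days 0, 1 and 2, and 1 to 3 at day 2 and 0 to 1 at day 4 relative to day 0. The causes were not tested. Replicate numbers did not pair the arrays: deviations of same-numbered arrays had a median r of -0.0097, with 31 of 135 pairs over 0.1, so the replicate block says nothing of a weaker effect. Probe sets near the lowest mean tested are the least certain.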
